A study of Mus musculus with 36 samples.

Results

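Difluoromethylornithine (DFMO), an irreversible inhibitor of the polyamine enzyme ornithine decarboxylase, was compared with vehicle in mouse T cells that were being differentiated into induced regulatory T cells (iTreg cells). The comparison rests on 6 of the 18 libraries of the study, which are 12 of its 36 samples because each library was sequenced in 2 runs. All iTreg libraries with either treatment label were taken, and the estimated counts of both runs were added. All cells came from C57BL/6 mice labelled WT1, WT2 and WT3, and each animal gave 1 vehicle and 1 DFMO library. Naive CD4+ T cells sorted from spleen were stimulated on plates coated with anti-CD3 and anti-CD28 antibodies (1 µg/ml each). The iTreg cultures contained TGFb1 at 2 ng/ml, with vehicle or with 100 µM DFMO, and live cells were sorted for RNA at 68 h. These were bulk cultures with no sort on Foxp3, so fewer cells of a type and less RNA per cell cannot be told apart in any result. For comparison, the same animals gave non-pathogenic Th17 cells (Th17n, IL-6 at 25 ng/ml with TGFb1 at 2 ng/ml) and pathogenic Th17 cells (Th17p, IL-6 at the same dose with 20 ng/ml each of IL-1b and IL-23), each with vehicle and with 100 µM DFMO.

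Polyamines (putrescine, spermidine and spermine) are small positively charged metabolites that growing cells make from ornithine and from decarboxylated S-adenosylmethionine. Their synthesis is held in check by antizymes, whose translation needs a ribosomal frameshift that polyamines promote and which send ornithine decarboxylase to the proteasome. Spermidine is also the substrate for hypusine, a modified lysine of the translation factor eIF5A. In activated T cells these routes are switched on together with growth and division, and regulatory T cells are defined by the transcription factor Foxp3, which TGF-beta signalling induces in naive cells.

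Values below are counts normalised to library size (CPM) in the 6 iTreg libraries, given for animals 1, 2 and 3 in that order, and a change is the log2 ratio of DFMO to vehicle ± its standard error from edgeR's quasi-likelihood test, with 3 animals in each group. A gene is said to have risen or fallen where the p-value adjusted by the Benjamini-Hochberg method over 11526 tested genes was under 0.05. The labelled cell type was first set against its markers. Cd4 stood at 384.1, 382.0 and 387.8 CPM with vehicle and at 366.5, 417.2 and 386.7 CPM with DFMO, and summed T cell marker genes ranged from 3322.5 to 3421.2 CPM with vehicle and from 3564.3 to 3919.0 CPM with DFMO. Foxp3 (chrX:7573644-7595245) was present in all 6 libraries, at 516.4, 397.1 and 392.6 CPM with vehicle and at 482.8, 476.1 and 274.3 CPM with DFMO. The markers thus fit the T cell label in both groups, and Foxp3 values of the groups overlapped (−0.08 ± 0.28, adjusted p = 0.85).

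DFMO changed 4329 of the 11526 tested genes (37.6%), of which 2112 rose (18.3% of the genes tested) and 2217 fell (19.2%). The falls were deeper: 975 of the called genes fell by at least 1 on the log2 scale, and 278 rose by as much, while past 2 on that scale there were 360 and 84. Library totals ran from 8307662 to 12594432 counts, and scaling factors (TMM) were 1.0715 to 1.0892 with vehicle and 0.957 to 0.9694 with DFMO. Without these factors the median gene shifted by −0.16 and the calls split into 1284 that rose and 3286 that fell, with none in the opposite direction to the main call. The split of the calls therefore depends on scaling, and counts for a gene list below are given with those without scaling factors. Each list is to be read against the 18.3% and 19.2% of all tested genes, or without scaling factors against 1284 and 3286 of 11526. Groups without overlap were common on the scaled values: every DFMO library lay above every vehicle library in 21.8% of tested genes, and below in 23.3%. Overlap was not recounted without scaling factors. The DFMO library of animal 3 stood apart from the other 5 on the second principal component (15.4% of the variance, against 56.8% on the first, which separated the treatments), and without it 4128 genes were called.

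**Figure D1:**
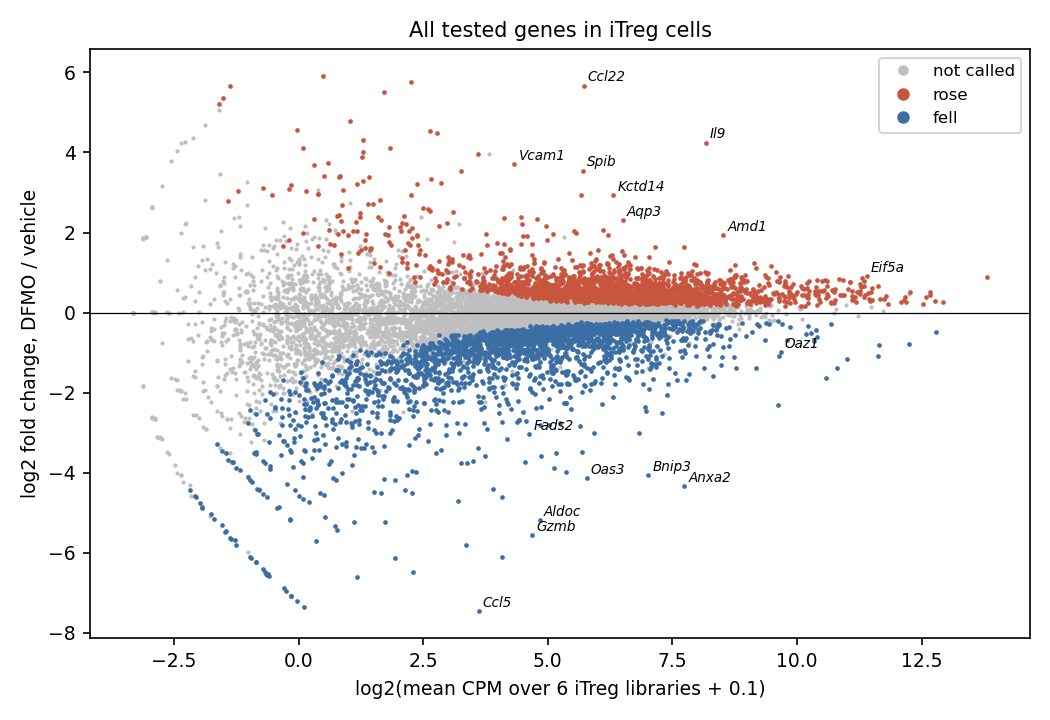
Change with DFMO in iTreg cells (log2 ratio, vertical axis) against mean level (log2 CPM, horizontal axis) for the 11526 tested genes, with the 2112 that rose in red, the 2217 that fell in blue and the rest in grey. The points reach further down than up: Aldoc, Gzmb and Ccl5 lie below −5, and Ccl22 alone among the labelled genes lies above 5.

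Within the polyamine pathway the transcripts of both decarboxylases moved, in opposite directions. Of 28 named polyamine genes 21 were tested, and 6 rose and 6 fell (5 and 7 without scaling factors), with a median of 0.13 against −0.04 over all genes. Amd1 (chr10:40287458-40302186), the S-adenosylmethionine decarboxylase that supplies the aminopropyl donor, was at 156.4, 154.0 and 145.1 CPM with vehicle and at 569.5, 647.1 and 530.4 CPM with DFMO. Every DFMO library was above every vehicle library, and the rise was 1.94 ± 0.08 (adjusted p = 1.4e-12). Odc1 (chr12:17544794-17551505), which encodes the enzyme DFMO inhibits, was at 150.8, 165.3 and 171.9 CPM with vehicle and at 84.0, 111.6 and 132.9 CPM with DFMO. The groups did not overlap, and Odc1 fell by 0.57 ± 0.14 on the log2 scale (adjusted p = 0.0028).

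On the scaled values, the synthases downstream of both enzymes were higher in each animal's DFMO library without passing the test. Srm, spermidine synthase, was at 30.4, 33.7 and 89.1 CPM with vehicle and 62.6, 57.1 and 138.0 CPM with DFMO (0.75 ± 0.63, adjusted p = 0.39). Animal 3 was highest in both groups, and with the animal as a block the difference was called (0.79, adjusted p = 0.037). Sms, spermine synthase, was at 206.3, 208.7 and 193.9 CPM with vehicle and 223.8, 243.1 and 233.7 CPM with DFMO (0.20 ± 0.08, adjusted p = 0.065, and 0.036 with the block). The size of the Sms effect was close to the shift of −0.16 that leaving out scaling factors gave the median gene. Amd2, a near-identical copy of Amd1, was at 17.9, 0.46 and 32.8 CPM with vehicle and 63.6, 1.25 and 124.6 CPM with DFMO. It was higher with DFMO in each animal, was close to 0 in animal 2 under both treatments, and passed the test only with the block (1.88 ± 1.57, adjusted p = 0.38, and 0.010 with the block). Reads from Amd1 and Amd2 can be split between the copies by the counting, so both values are uncertain to that extent.

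The antizymes fell and their inhibitor rose. Oaz1 (chr10:80826656-80829290), antizyme 1, was at 1144.7, 1045.5 and 1069.2 CPM with vehicle and at 596.5, 518.0 and 521.1 CPM with DFMO (−0.99 ± 0.07, adjusted p = 2.0e-09). Oaz2 (chr9:65668001-65690300), its paralog, was at 55.3, 56.7 and 57.2 CPM with vehicle and at 10.9, 6.23 and 7.33 CPM with DFMO (−2.81 ± 0.17, adjusted p = 4.0e-10). For both genes all DFMO libraries lay far below all vehicle libraries. Azin1, the antizyme inhibitor that frees ornithine decarboxylase, was at 110.4, 96.9 and 99.8 CPM with vehicle and at 174.6, 191.3 and 182.3 CPM with DFMO. It was higher in every DFMO library, by 0.84 ± 0.10 (adjusted p = 1.1e-06).

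Both oxidases that break polyamines down fell. Smox, spermine oxidase, was at 33.5, 33.4 and 36.4 CPM with vehicle and at 8.95, 5.31 and 8.29 CPM with DFMO (−2.21 ± 0.26, adjusted p = 1.4e-05). Paox, the oxidase of acetylated polyamines, was at 37.4, 42.2 and 35.2 CPM with vehicle and at 11.6, 18.8 and 15.1 CPM with DFMO (−1.33 ± 0.20, adjusted p = 1.8e-05). Neither gene's groups overlapped. Sat1, the acetyltransferase that marks polyamines for export or oxidation, was at 269.8, 26.9 and 295.9 CPM with vehicle and 215.7, 24.7 and 262.4 CPM with DFMO. Animal 2 was far below the other animals under both treatments, and the difference did not pass the test (−0.24 ± 1.36, adjusted p = 0.91).

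Genes for moving polyamines and their precursors gave 1 rise and 1 fall among 6 tested (1 and 2 without scaling factors). Slc3a2, the heavy chain of several amino acid transporters, was at 323.2, 368.8 and 405.4 CPM with vehicle and 464.8, 546.0 and 569.1 CPM with DFMO (0.53 ± 0.09, adjusted p = 1.5e-04). Slc12a8 was at 5.81, 10.1 and 9.60 CPM with vehicle and 4.97, 3.32 and 1.48 CPM with DFMO (−1.41 ± 0.44, adjusted p = 0.016), a call that was lost without vehicle animal 2 (−1.26, adjusted p = 0.061) or DFMO animal 3 (−1.06, adjusted p = 0.072). Atp13a2, the lysosomal polyamine exporter gene, did not pass (−0.50 ± 0.23, adjusted p = 0.092) although its groups did not overlap, and it was called lower under 5 of the 18 settings (without scaling factors −0.66, adjusted p = 0.024). Its relative Atp13a3 (0.22 ± 0.13, adjusted p = 0.21, but 0.36 with adjusted p = 0.044 without vehicle animal 1), the vesicular transporter gene Slc18b1 and the arginine transporter gene Slc7a1 (0.09 ± 0.11, adjusted p = 0.53) did not pass.

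Of 4 genes of the hypusine route 3 rose, all but Eif5a2 (2 rises without scaling factors and 1 on log2(TPM + 1)). Eif5a (chr11:69916714-69921958), whose product carries the hypusine, was at 2150.7, 1775.4 and 1737.0 CPM with vehicle and at 3523.1, 3614.5 and 3455.5 CPM with DFMO. The groups were well separated, and the rise was 0.90 ± 0.07 (adjusted p = 8.6e-09). Dohh, the hydroxylase that completes hypusine, was at 101.4, 102.7 and 103.5 CPM with vehicle and 119.1, 157.4 and 145.1 CPM with DFMO (0.46 ± 0.09, adjusted p = 2.8e-04, but 0.22 with adjusted p = 0.095 on log2(TPM + 1)). Dhps, which transfers the spermidine part, rose by 0.28 ± 0.10 (adjusted p = 0.032), a call lost under 10 of the 18 alternative settings. In the methionine cycle and salvage, which provide S-adenosylmethionine and recycle its sulfur-containing remnant, 4 of 13 genes rose and 1 fell (2 and 2 without scaling factors). Mat2a, which makes S-adenosylmethionine, was at 326.8, 199.1 and 202.9 CPM with vehicle and 398.6, 444.5 and 391.5 CPM with DFMO (0.76 ± 0.14, adjusted p = 5.3e-04), Mtap of the salvage arm rose by 0.67 ± 0.17 (adjusted p = 0.0035, but 0.052 on log2(TPM + 0.1)), and Ahcyl1 fell by 0.83 ± 0.13.

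**Figure D2:**
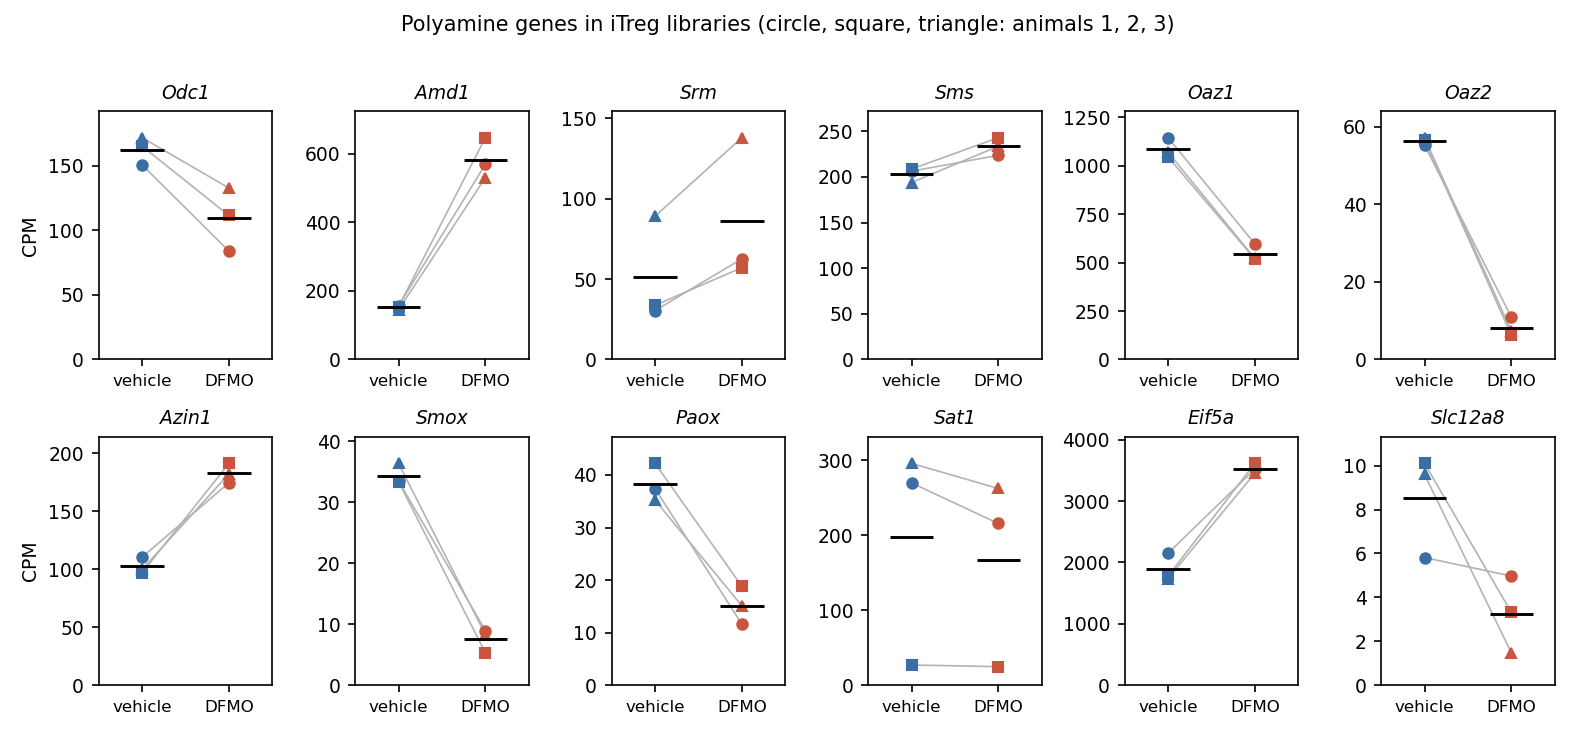
CPM (vertical axes, linear) of 12 polyamine genes in the iTreg libraries with vehicle and with DFMO, with lines joining the libraries of an animal (circle, square and triangle for animals 1, 2 and 3) and bars at the group means. Amd1, Azin1 and Eif5a lie higher in all 3 DFMO libraries, Odc1, Oaz1, Oaz2, Smox and Paox lower, and Sat1 is low in animal 2 under both treatments.

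The regulatory T cell programme was mixed. Of 46 tested signature genes 9 rose and 13 fell (7 and 18 without scaling factors), with a median of −0.10. Over all tested genes 18.3% rose and 19.2% fell, so the share of rises was near that of all genes. Among the transcription factors, Ikzf4 (Eos), a partner of Foxp3, was at 92.1, 92.8 and 98.2 CPM with vehicle and 166.1, 182.0 and 147.8 CPM with DFMO, a rise of 0.81 ± 0.12 (adjusted p = 1.7e-05) with no overlap. The chromatin organiser Satb1 fell by 1.16 ± 0.12, and Gata3 by 0.59 ± 0.22 (adjusted p = 0.038), a call lost under 6 of the 18 settings (adjusted p from 0.059 to 0.19), 5 of which left out 1 library (−0.40, adjusted p = 0.19, without vehicle animal 3). Ikzf2 (Helios) was at 21 to 42.5 CPM with vehicle and 26 to 46.5 CPM with DFMO (0.14 ± 0.32, adjusted p = 0.77).

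Several inhibitory and tumour necrosis factor family receptors of regulatory T cells fell. Ctla4 (chr1:60887000-60915832), the receptor that takes CD80 and CD86 off antigen-presenting cells, was at 189.6, 199.1 and 234.5 CPM with vehicle and at 39.0, 42.0 and 41.3 CPM with DFMO. The groups were far apart, and Ctla4 fell by 2.35 ± 0.18 (adjusted p = 8.7e-08). Tigit went from 9.68, 16 and 27.1 CPM to 2.24, 2.82 and 2.53 CPM (−2.79 ± 0.40, adjusted p = 6.9e-05). Tnfrsf9 (4-1BB) went from 224.0, 298.4 and 362.4 CPM to 83.7, 99.6 and 91.2 CPM (−1.69 ± 0.23, adjusted p = 8.4e-05), and Tnfrsf18 (GITR) from 451.8, 617.0 and 678.4 CPM to 227.0, 272.0 and 316.6 CPM (−1.10 ± 0.16). In none of these did the groups overlap. The IL-2 receptor alpha chain gene Il2ra did not pass the test, at 1353.0, 1085.9 and 1034.2 CPM with vehicle and 914.2, 1016.8 and 1185.2 CPM with DFMO (−0.16 ± 0.10, adjusted p = 0.25, but −0.32 with adjusted p = 0.013 without scaling factors).

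Other receptors rose. Ccr4, a chemokine receptor, went from 169.1, 143.8 and 160.0 CPM to 288.9, 298.0 and 313.4 CPM (0.93 ± 0.10, adjusted p = 6.2e-07). Nrp1 (chr8:128358604-128503363), a semaphorin co-receptor common on thymic regulatory cells, went from 186.8, 146.6 and 108.2 CPM to 359.9, 362.2 and 297.9 CPM. It was higher in every DFMO library (1.21 ± 0.35, adjusted p = 0.017), and the call was lost without vehicle animal 2 (adjusted p = 0.053) or vehicle animal 3 (1.01, adjusted p = 0.078). Lrrc32 (GARP), which displays latent TGF-beta, did not pass (0.18 ± 0.18, adjusted p = 0.47), except without vehicle animal 1 (0.47, adjusted p = 0.040).

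Of 14 effector genes 2 rose and 4 fell (the same counts without scaling factors). Tgfb1 was at 4.84, 2.94 and 3.54 CPM with vehicle and 9.44, 8.47 and 7.42 CPM with DFMO (1.16 ± 0.32, adjusted p = 0.0069), and the integrin gene Itgae (CD103) at 0.753, 0.919 and 0.674 CPM with vehicle and 4.22, 4.07 and 1.57 CPM with DFMO (2.05 ± 0.53, adjusted p = 0.0041). Both were higher in every DFMO library, at low levels. Gzmb, granzyme B, was at 21.3, 34.0 and 95.1 CPM with vehicle and at 0.124, 1.83 and 0.96 CPM with DFMO (−5.55 ± 0.74, adjusted p = 7.2e-05). Lag3 went from 21.8, 78.6 and 103.4 CPM to 9.69, 14.7 and 17.8 CPM (−2.26 ± 0.45, adjusted p = 0.0017, but 0.057 in the iTreg libraries alone). Entpd1 (CD39), which degrades extracellular ATP, went from 6.99, 5.24 and 7.75 CPM to 3.11, 1.16 and 1.05 CPM (−1.97 ± 0.46, adjusted p = 0.0019). The groups did not overlap for any of the 3. Fgl2 had 19 counts over the vehicle libraries and 0 over the DFMO libraries, at least 6.24-fold lower against a floor of 3 counts over the group, and Il10 was at or near 0 in all libraries.

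Of the genes that act inside the cell in this signature, Rgs16 rose by 1.25 ± 0.22 and Cish, a feedback inhibitor of cytokine signalling, by 0.50 ± 0.07 (adjusted p = 2.0e-05). Ptpn22, a phosphatase that dampens T cell receptor signalling, was at 104.9, 130 and 138.7 CPM with vehicle and 53.8, 48.0 and 41.7 CPM with DFMO, a fall of 1.38 ± 0.14 (adjusted p = 1.6e-07).

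**Figure D3:**
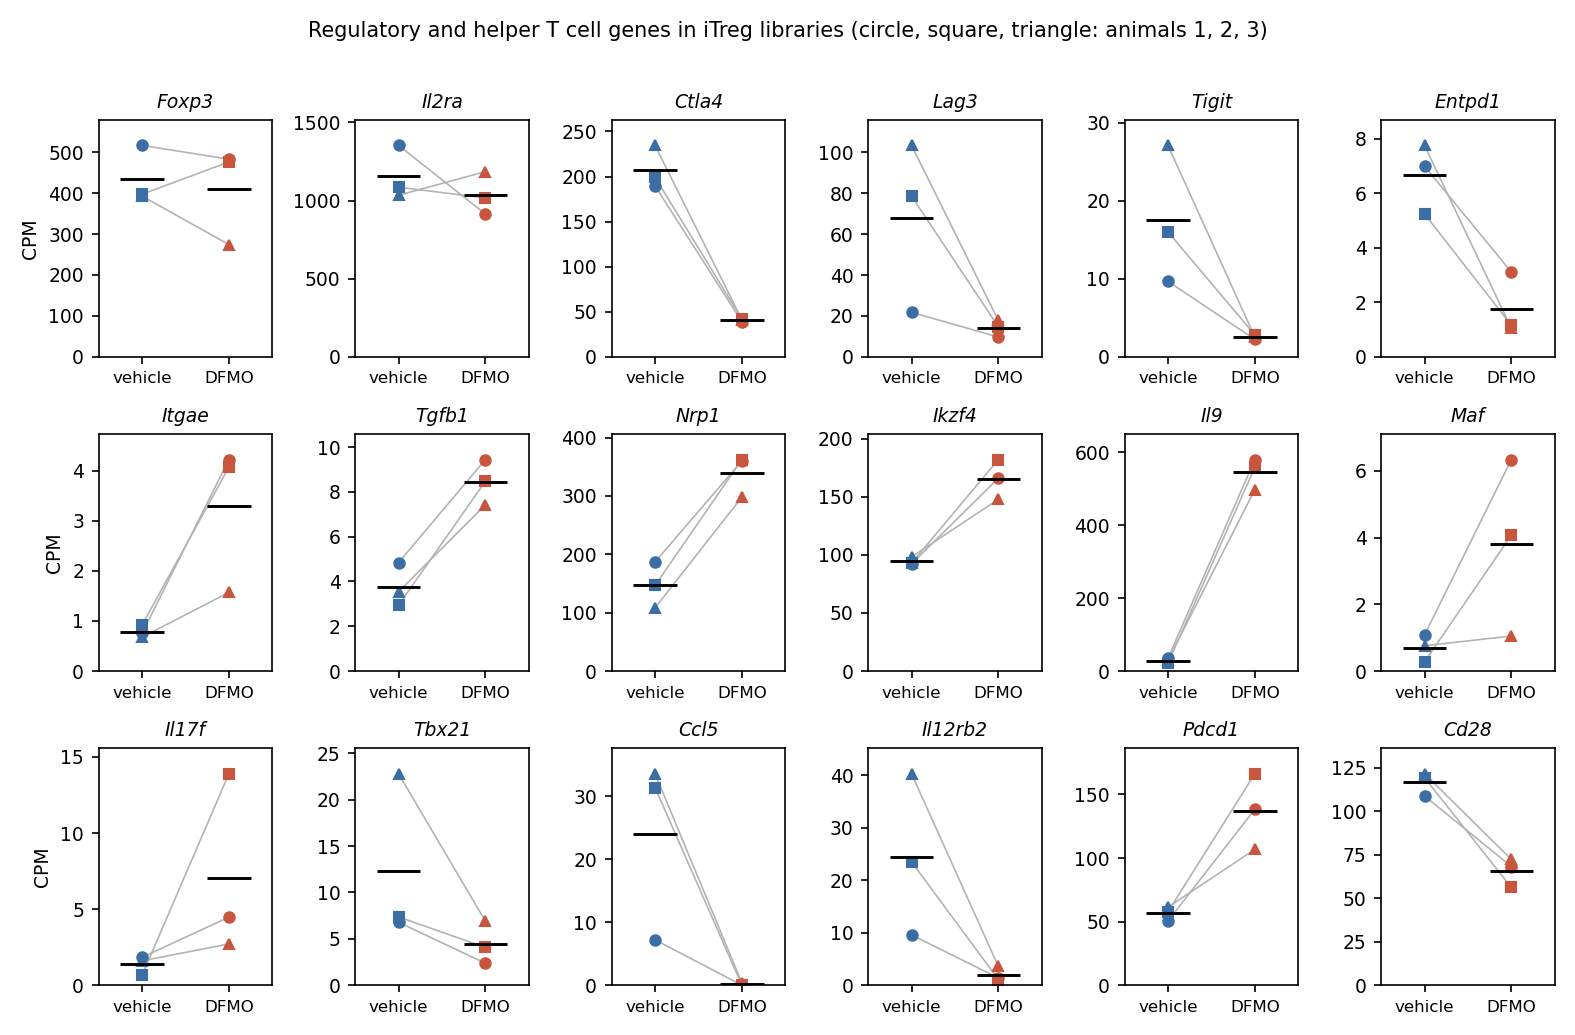
CPM (vertical axes, linear) of 18 regulatory and effector T cell genes in the iTreg libraries with vehicle and with DFMO, with lines joining the libraries of an animal and bars at the group means. Foxp3 and Il2ra overlap between treatments, Ctla4, Tigit and Lag3 are lower with DFMO in all 3 animals, and Ikzf4, Nrp1, Il9 and Pdcd1 higher.

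The TGF-beta response leaned upward. Of 26 tested genes 12 rose and 2 fell (9 and 4 without scaling factors), with a median of 0.41. Id1 (chr2:152736251-152737410), an inhibitor of helix-loop-helix factors, was at 7.42, 9.38 and 6.91 CPM with vehicle and 37.3, 49.1 and 23.1 CPM with DFMO (2.21 ± 0.25, adjusted p = 8.6e-07). Every DFMO library was above every vehicle library. Id2 rose by 0.68 ± 0.16 (adjusted p = 0.0026), and Id3 by 0.65 (adjusted p = 0.029, lost under 9 of the 18 settings). The receptor gene Tgfbr1 went from 46.3, 37.7 and 36.6 CPM to 81.6, 72.4 and 60.2 CPM (0.83 ± 0.20, adjusted p = 0.0021, but 0.053 on log2(TPM + 0.1)). The negative regulators Ldlrad4 (26.7, 17.4 and 10.1 CPM to 58.0, 39.6 and 29.2 CPM, 1.23 ± 0.28, adjusted p = 0.0020, but 0.070 in the iTreg libraries alone) and Ski (0.65 ± 0.13, adjusted p = 4.3e-04) also rose. The signal transducers themselves did not pass: Smad2, Smad3, Smad4 and Smad7 stood at −0.18, 0.04, −0.24 and −0.06, of which Smad2 was called lower without scaling factors (−0.34, adjusted p = 0.030). Tgfb3 had 30 counts with vehicle and 1 with DFMO, a ratio of 29.5 with an interval of 4.91 to 1205.2 that covers counting error only.

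Many Th1 genes fell. Of 14 tested genes none rose and 7 fell, both with and without scaling factors, with a median of −0.61. Tbx21 (T-bet), the factor that directs this lineage, was at 6.78, 7.36 and 22.8 CPM with vehicle and 2.36, 4.07 and 6.90 CPM with DFMO. The groups overlapped, and the fall of 1.45 ± 0.44 (adjusted p = 0.017) was lost under 4 settings, most clearly without vehicle animal 3 (−0.66, adjusted p = 0.14). Runx3, its partner, went from 53.2, 49.2 and 75.7 CPM to 13.8, 12.7 and 25.3 CPM (−1.77 ± 0.22, adjusted p = 7.5e-06). Il12rb2, the inducible IL-12 receptor chain, went from 9.58, 23.5 and 40.3 CPM to 1.37, 1.08 and 3.58 CPM (−3.58 ± 0.52, adjusted p = 1.4e-04). Stat4, which signals below it, went from 79.9, 136.6 and 161.8 CPM to 29.8, 35.4 and 44.8 CPM (−1.78 ± 0.28, adjusted p = 2.2e-04). The groups of Runx3, Il12rb2 and Stat4 did not overlap. Ccl5, a chemokine of effector cells, was at 7.21, 31.4 and 33.6 CPM with vehicle and at 0.0, 0.0 and 0.349 CPM with DFMO (adjusted p = 2.1e-04). Animal 1 had the lowest vehicle value for Il12rb2, Stat4 and Ccl5. Ifng was not tested because of its low counts.

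Genes of the Th17 signature moved both ways, 7 up and 4 down of 25 tested (6 and 6 without scaling factors, 6 and 7 on log2(TPM + 1)). Il9 (chr13:56479277-56482246), a cytokine that TGF-beta can induce in several helper lineages, was at 35.0, 21.5 and 30 CPM with vehicle and at 580.2, 559.1 and 497.8 CPM with DFMO. The groups were far apart, and the rise of 4.25 ± 0.28 (adjusted p = 1.1e-07) was the second largest among the annotated genes with a mean log2 CPM of 3 or more and the same sign in all 3 animals. Il17f was at 1.83, 0.644 and 1.6 CPM with vehicle and 4.47, 13.9 and 2.71 CPM with DFMO. Its rise (2.42 ± 0.68, adjusted p = 0.014) rested on low counts and was lost without vehicle animal 2 (2.10, adjusted p = 0.058) or DFMO animal 2 (1.38, adjusted p = 0.099), and Il17a, Il21, Il22 and Il23r were near 0 throughout. Il1rn, the IL-1 receptor antagonist, went from 22.1, 33.4 and 35.8 CPM to 101.3, 160.3 and 87.8 CPM (1.93 ± 0.39, adjusted p = 0.0016), and Ccr6, the receptor for CCL20, from 64.0, 61.4 and 60.7 CPM to 140.5, 112.7 and 94.6 CPM (0.90 ± 0.18, adjusted p = 8.0e-04).

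Of the Th17 transcription factors, Maf, at 1.08, 0.276 and 0.758 CPM with vehicle and 6.34, 4.07 and 1.05 CPM with DFMO, rose by 2.39 ± 0.66 (adjusted p = 0.011), with DFMO animal 3 inside the vehicle range. Batf (52.9, 48.7 and 47.4 CPM to 17.0, 23.2 and 29.2 CPM, −1.09 ± 0.13) and Hif1a (211.7, 289.2 and 330.0 CPM to 129.7, 144.0 and 162.8 CPM, −0.93 ± 0.13) fell with no overlap. The Th2 list gave 3 rises and 3 falls among 7 tested genes (2 and 3 without scaling factors), with Ccr4 and Il4ra, whose call was lost under 6 settings, among the rises and Stat6 (−0.48) and Nfil3 (−1.48) among the falls.

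Naive and memory genes gave 3 rises and 6 falls among 20 (1 and 6 without scaling factors), against 18.3% and 19.2% of all tested genes with scaling factors. Bcl2, the survival factor, went from 281.2, 268.7 and 251.8 CPM to 176.3, 158.0 and 162.7 CPM (−0.69 ± 0.10) without overlap. Ccr7, which guides cells to lymph nodes, was at 917.1, 1422.7 and 1749.6 CPM with vehicle and 1038.4, 977.7 and 832.9 CPM with DFMO. The groups overlapped through vehicle animal 1, and the fall of 0.52 ± 0.16 (adjusted p = 0.020) was lost under 5 of the 18 settings. Tcf7 did not pass (−0.08, adjusted p = 0.65). Of 19 co-inhibitory and co-stimulatory receptors 2 rose and 11 fell (2 and 12 without scaling factors). Among the inhibitory receptors 2 of 9 rose (Pdcd1 and Cd5) and 4 fell. Pdcd1 (PD-1) went from 50.5, 57.8 and 61.3 CPM to 138.4, 166.3 and 106.8 CPM (1.28 ± 0.14, adjusted p = 6.2e-07), and Cd28 went from 108.9, 119.4 and 121.7 CPM to 68.3, 56.3 and 72.4 CPM (−0.83 ± 0.11, adjusted p = 3.8e-06). Neither gene's groups overlapped.

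**Figure D4:**
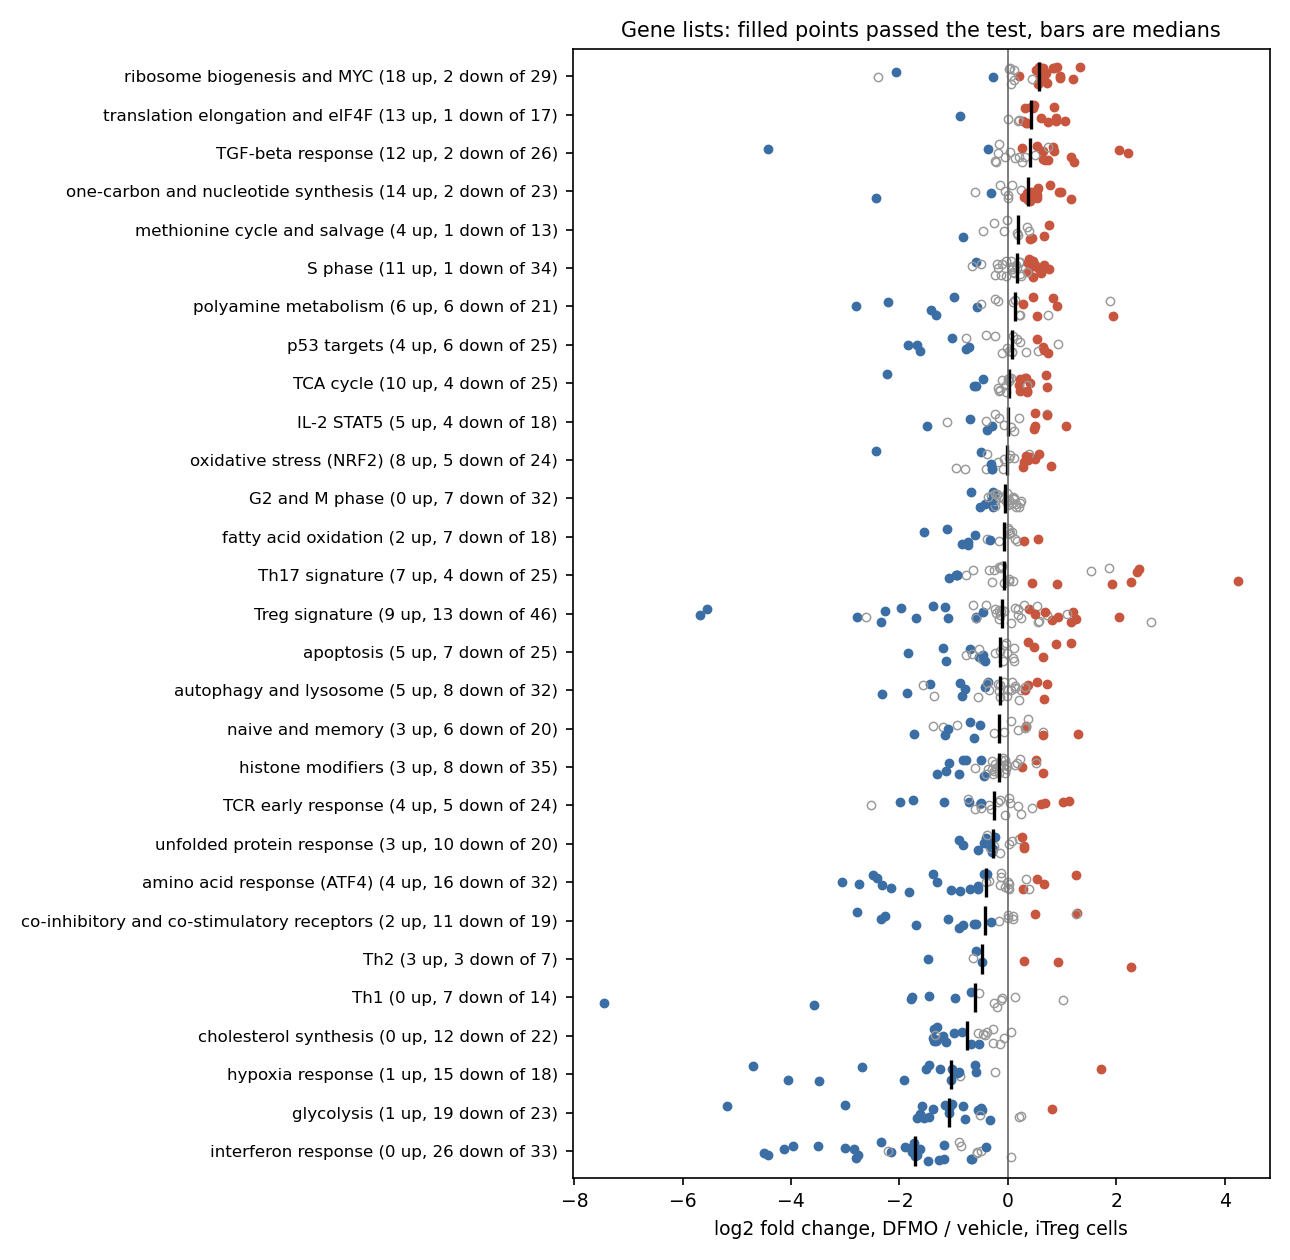
Change with DFMO in iTreg cells (log2 ratio, horizontal axis) of each tested gene in 29 gene lists, filled red where it rose, filled blue where it fell and open where it did not pass, with a bar at each list's median. The interferon, glycolysis and hypoxia lists have medians of −1.71, −1.09 and −1.05, and the ribosome biogenesis list has one of 0.58, against −0.04 over all genes.

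Interferon-response genes fell, with the lowest median of the lists plotted. Of 33 tested genes none rose and 26 fell (27 without scaling factors, 27 without DFMO animal 3), with a median of −1.71. The DNA element through which type I interferons act on such genes is bound by a complex that contains STAT2 and IRF9. The motif TTTCNNTTTC was searched on both strands in the 250 bases before the start of each gene for which a RefSeq promoter (GRCm38.p6) was matched. It was present in 12 of 24 promoters of the list (50.0%), and in 9 of the 19 of the genes that fell (47.4%), against 3.27% of 9150 promoters of tested genes. The match is a description of the letters and not of binding. The 30-base stretches around it are shown for 3 of the genes described next because they carry the shared letters, which are in capitals (in Bst2 a pair of overlapping matches), each read 5′ to 3′ on the gene's strand, from chr8:71537577-71537606 (−), chr10:128270266-128270295 (+) and chr5:120777715-120777744 (−).
Bst2: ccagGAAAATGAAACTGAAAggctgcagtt
Stat2: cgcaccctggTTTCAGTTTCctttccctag
Oas3: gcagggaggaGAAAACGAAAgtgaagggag

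Bst2 (tetherin), which holds budding virus particles to the cell, was at 174.0, 200.5 and 253.9 CPM with vehicle and 65.0, 64.2 and 68.9 CPM with DFMO (−1.67 ± 0.12, adjusted p = 2.4e-09). Stat2 itself went from 76.6, 89.4 and 118.0 CPM to 34.8, 28.9 and 23.3 CPM (−1.71 ± 0.16, adjusted p = 1.2e-07). Oas3, a sensor of double-stranded RNA, went from 80.9, 103.1 and 126.0 CPM to 9.44, 5.98 and 2.88 CPM (−4.13 ± 0.31, adjusted p = 1.9e-07). All 3 genes were lower in every DFMO library than in any vehicle library. Parp14 (−1.78 ± 0.14), Isg15 (53.5, 73.1 and 106.5 CPM to 7.08, 6.14 and 1.92 CPM, −3.97 ± 0.42) and Irf7 (71.3, 79.5 and 111.7 CPM to 20.6, 14.9 and 1.92 CPM, −2.84 ± 0.50) fell likewise. The call of Irf7 was lost in the iTreg libraries alone (adjusted p = 0.060, and 0.18 with the block), and that of Isg15 in these libraries with the block (adjusted p = 0.054). Some members were low in a single library: Ifit3 was at 23.9, 18.5 and 15.5 CPM with vehicle and 33.2, 27.2 and 0.437 CPM with DFMO (0.06 ± 0.88, adjusted p = 0.97), and Rtp4 at 49.4, 25.3 and 24.8 CPM with vehicle and 42.4, 24.7 and 0.437 CPM with DFMO. In both genes the DFMO library of animal 3 was near 0, while the other DFMO libraries lay above the vehicle range for Ifit3 and close to or within it for Rtp4.

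Glycolysis and the hypoxia response fell together. Of 23 glycolysis genes 1 rose and 19 fell (1 and 20 without scaling factors), with a median of −1.09, and of 18 hypoxia-response genes 1 rose and 15 fell (the same counts without scaling factors), with a median of −1.05. The hypoxia-inducible factor HIF-1 binds short elements with the letters ACGTG. These letters were present on either strand in 9 of the 12 promoters of hypoxia genes that fell (75.0%) and in 9 of the 18 of glycolysis genes that fell (50.0%), against 25.7% of the 9150 promoters. The whole tested lists held them at like shares, in 11 of 15 (73.3%) and 11 of 22 promoters (50.0%). Over all genes they were in 25.3% of promoters of genes that fell and 28.2% of those that rose. So short a motif also lies inside the E-box CACGTG, as it does in Bnip3. Stretches are shown for 4 genes with large falls, with the match in capitals and read 5′ to 3′ on the gene's strand, from chr11:54100834-54100863 (+), chr7:138909596-138909625 (−), chrX:106186957-106186986 (+) and chr7:126799363-126799392 (−).
P4ha2: tgtgcatcgcatACGTGcagcgcgtggcgg
Bnip3: cgcacgcgccgCACGTGccacacgctcccc
Pgk1: aaatggaagtagCACGTctcactagtctcg
Aldoa: tgtggctcgagtCACGTcctagcggggcgg

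P4ha2, a collagen prolyl hydroxylase subunit, was at 17.0, 15.9 and 19.8 CPM with vehicle and 0.497, 0.249 and 1.22 CPM with DFMO (−4.70 ± 0.39, adjusted p = 1.4e-07). Bnip3 (chr7:138890836-138909519), which directs mitochondria to autophagy, went from 293.1, 239.5 and 197.6 CPM to 9.44, 8.30 and 25.8 CPM (−4.05 ± 0.35, adjusted p = 1.6e-06). Pgk1, phosphoglycerate kinase, went from 2810.3, 2952.1 and 2776.2 CPM to 1016.3, 1205.9 and 1597.0 CPM (−1.16 ± 0.11, adjusted p = 1.2e-07). Within each of these genes the DFMO library of animal 3 was the highest of the DFMO libraries and still below every vehicle library. Aldoa, an aldolase, went from 2364.5, 2723.5 and 2669.1 CPM to 769.3, 927.2 and 1287.3 CPM (−1.38 ± 0.12, adjusted p = 1.6e-07), and its paralog Aldoc (chr11:78322968-78327781) from 53.2, 60 and 52.9 CPM to 0.497, 0.996 and 2.79 CPM (−5.19 ± 0.29, adjusted p = 2.4e-09). Aldoc had the largest fall among the annotated genes with a mean log2 CPM of 3 or more.

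The entry and exit of the pathway fell as well. The glucose transporter gene Slc2a1 went from 121.3, 90.6 and 87.7 CPM to 33.4, 45.0 and 66.5 CPM (−1.04 ± 0.20, adjusted p = 7.1e-04, but 0.087 in the iTreg libraries alone with the block), and the lactate exporter gene Slc16a3 from 244.1, 178.0 and 183.2 CPM to 7.70, 9.88 and 56.8 CPM (−3.0 ± 0.54, adjusted p = 7.7e-04, but 0.070 in the iTreg libraries alone). Gpi1 fell by 1.09 ± 0.08, Pfkp by 1.58 ± 0.13, Pdk1, a kinase that inhibits pyruvate dehydrogenase, by 1.46 ± 0.14, and Ldha by 0.79 ± 0.08. The exceptions were few. Ldhb, the lactate dehydrogenase of oxidative tissues, went from 37.9, 35.7 and 41.5 CPM to 58.0, 58.7 and 85.6 CPM (0.81 ± 0.14, adjusted p = 9.5e-05). The vasodilator peptide gene Adm rose from 10.0, 13.2 and 7.16 CPM to 31.9, 25.2 and 43.1 CPM (1.72 ± 0.29, adjusted p = 7.9e-05). Hexokinase 2 (Hk2) did not pass (0.24, adjusted p = 0.36), except without DFMO animal 1 (0.48, adjusted p = 0.0037).

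Mitochondrial and lipid genes followed no single direction. Of 25 genes of the tricarboxylic acid cycle 10 rose and 4 fell, but 4 and 7 with scaling factors left out and 2 and 9 on log2(TPM + 1), so the list's direction turned with scaling. Pdha1 of pyruvate dehydrogenase was at 308.7, 315.4 and 289.2 CPM with vehicle and 469.6, 537.4 and 507.7 CPM with DFMO (0.73 ± 0.07, adjusted p = 6.7e-08), and Sdha of succinate dehydrogenase rose by 0.70 ± 0.08. Idh1, the cytosolic isocitrate dehydrogenase, went from 33.9, 33.1 and 21.8 CPM to 4.85, 4.65 and 9.25 CPM (−2.23 ± 0.25, adjusted p = 1.0e-06). The groups of all 3 genes were separate. Of 18 fatty acid oxidation genes 2 rose and 7 fell (1 and 9 without scaling factors), led by the dehydrogenase Acadl, which went from 105.5, 114.5 and 140.8 CPM to 44.0, 34.9 and 44.3 CPM (−1.55 ± 0.14, adjusted p = 4.2e-08). Cpt1a, the gate for long-chain fatty acids, fell by 0.73.

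Cholesterol synthesis fell, with 12 of 22 genes lower and none higher (16 without scaling factors and 16 without DFMO animal 3) and a median of −0.76. Hmgcs1, at the start of the route, went from 519.8, 345.6 and 359.2 CPM to 129.2, 128.1 and 209.2 CPM (−1.39 ± 0.25, adjusted p = 6.4e-04), and Nsdhl, near its end, from 105.0, 63.7 and 58.6 CPM to 25.0, 25.6 and 40.1 CPM (−1.32 ± 0.22, adjusted p = 1.4e-04). Vehicle animal 1 was highest and DFMO animal 3 the highest of the DFMO libraries in both, without overlap. Srebf2, the regulator of the route, did not pass (−0.15), but was called lower under 4 settings (without scaling factors −0.31, adjusted p = 0.011).

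Many targets of ATF4, the factor that answers amino acid shortage, fell, while Atf4 itself did not pass the test. Atf4 stood at 350.9, 399.2 and 399.3 CPM with vehicle and 311.7, 430.5 and 427.9 CPM with DFMO (0.03 ± 0.09, adjusted p = 0.86). Of 32 tested genes of the amino acid response 4 rose and 16 fell (3 and 20 without scaling factors), with a median of −0.40. The C/EBP-ATF element TGATGNAA was present on either strand in 9 of 25 of their promoters (36%), and in 5 of the 12 of genes that fell (41.7%), against 2.47% of the 9150. Stretches are shown for a pair of genes that fell and for 1 that rose, with the match in capitals, from chr19:27216809-27216838 (+), chr11:120643833-120643862 (−) and chr7:126625562-126625591 (−).
Vldlr: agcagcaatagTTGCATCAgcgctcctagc
Pycr1: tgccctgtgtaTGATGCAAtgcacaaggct
Nupr1: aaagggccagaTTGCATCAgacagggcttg

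Vldlr, a lipoprotein receptor gene, was at 9.58, 8.92 and 9.18 CPM with vehicle and 0.497, 0.249 and 2.44 CPM with DFMO (−3.06 ± 0.41), and Pycr1 of proline synthesis at 15.4, 27.2 and 29.4 CPM with vehicle and 9.19, 9.71 and 8.91 CPM with DFMO (−1.38 ± 0.20, adjusted p = 1.5e-05). Nupr1, a stress-induced chromatin protein gene that holds the same letters, rose from 32.0, 49.6 and 47.3 CPM to 89.6, 132.6 and 83.5 CPM (1.25 ± 0.18, adjusted p = 1.7e-05). Trib3, a pseudokinase, went from 57.0, 71.6 and 69.7 CPM to 7.08, 8.13 and 13.9 CPM (−2.75 ± 0.23, adjusted p = 8.6e-08). Ddit3 (CHOP) went from 48.6, 85.7 and 89.4 CPM to 13.8, 12.7 and 15.6 CPM (−2.41 ± 0.19, adjusted p = 2.2e-08), and Cth, which makes cysteine, from 65.4, 99.4 and 84.6 CPM to 21.5, 27.4 and 21.2 CPM (−1.83 ± 0.17). In each of these 6 genes the groups did not overlap. Asns (−0.70 ± 0.14) and the translation repressor gene Eif4ebp1 (−0.89) fell too, and the amino acid transporter genes Slc7a5 (0.67, not called on log2(TPM + 0.1), adjusted p = 0.054) and Slc3a2 rose. In the unfolded protein response 3 of 20 genes rose and 10 fell (0 and 11 without scaling factors). Xbp1, its transcription factor, went from 340.9, 391.4 and 415.4 CPM to 226.6, 177.6 and 212.9 CPM (−0.90 ± 0.12, adjusted p = 6.7e-06), and Sel1l of protein export from the reticulum fell by 0.82.

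Genes for making ribosomes, proteins and nucleotides mostly rose. Of 29 ribosome biogenesis genes 18 rose and 2 fell (17 and 2 without scaling factors), with a median of 0.58. Dkc1, which modifies ribosomal RNA, was at 296.6, 244.2 and 249.7 CPM with vehicle and 590.4, 648.8 and 570.7 CPM with DFMO (1.20 ± 0.09, adjusted p = 3.0e-09), and Rrp12 went from 38.2, 34.2 and 34.7 CPM to 73.7, 102.3 and 93.9 CPM (1.34 ± 0.13, adjusted p = 8.9e-08). Both were higher in every DFMO library. Myc, which drives many of these genes, did not pass, at 536.6, 547.8 and 510.6 CPM with vehicle and 502.7, 600.5 and 540.4 CPM with DFMO (0.04 ± 0.09, adjusted p = 0.73). The E-box CACGTG to which it binds was in 1 of the 15 promoters of genes of this list that rose (6.67%), against 10.0% of the 9150. Over all genes it was in 224 of 1712 promoters of genes that rose (13.1%) and in 132 of 1746 of those that fell (7.56%). A role of Myc was not tested.

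Of 17 genes for translation elongation and cap binding 13 rose and 1 fell (9 and 1 without scaling factors). Eef1a1, the factor that brings transfer RNA to the ribosome, was at 9731.9, 10555.4 and 10033.3 CPM with vehicle and 18324.5, 19592.6 and 18154.0 CPM with DFMO (0.89 ± 0.07, adjusted p = 3.8e-09). Eef1d, a subunit of its exchange factor, went from 282.1, 256.2 and 242.9 CPM to 532.4, 565.5 and 526.4 CPM (1.06 ± 0.07, adjusted p = 2.4e-09). Both were separated completely between treatments. Eef1a1 and Eif5a have near-identical processed copies in the genome among which reads can be split. Of 23 genes of one-carbon and nucleotide synthesis 14 rose and 2 fell (10 and 4 without scaling factors). Dhodh, the mitochondrial step of pyrimidine synthesis, went from 40.2, 38.2 and 34.5 CPM to 86.0, 94.3 and 71.3 CPM (1.16 ± 0.12, adjusted p = 3.4e-07), and Mthfd1 rose by 0.77 ± 0.09. The mitochondrial folate genes Shmt2 (−0.14, but −0.30 with adjusted p = 0.0084 without scaling factors) and Mthfd2 (0.01) did not pass, and Aldh1l2 fell by 2.44.

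Among cell cycle genes the calls depended on scaling. Of 34 S phase genes 11 rose and 1 fell, but 7 and 5 with scaling factors left out and 4 and 5 on log2(TPM + 1). Mcm2 of the replicative helicase was at 338.8, 306.4 and 294.5 CPM with vehicle and 525.9, 571.2 and 498.1 CPM with DFMO (0.76 ± 0.08, adjusted p = 4.3e-07), higher in every DFMO library. Of 32 genes of G2 and M phase none rose and 7 fell (16 without scaling factors), a share of falls near the 19.2% of all tested genes. Cenpa, the centromeric histone, went from 187.5, 167.1 and 171.7 CPM to 127.0, 127.0 and 115.0 CPM (−0.51 ± 0.08, adjusted p = 2.3e-05), and Mki67 from 416.9, 369.9 and 355.1 CPM to 269.0, 277.2 and 303.7 CPM (−0.43 ± 0.10, adjusted p = 0.0014). Both sets of libraries were apart.

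Of 25 p53 targets 4 rose and 6 fell (4 and 8 without scaling factors). Ccng1 (0.75), Bax (0.64) and Aen (0.66) rose, Pmaip1 (Noxa) went from 19.4, 31.0 and 28.2 CPM to 6.46, 6.47 and 8.82 CPM (−1.85 ± 0.21), and Cdkn1a did not pass (−0.23, adjusted p = 0.45). Among apoptosis genes 5 of 25 rose and 7 fell (2 and 11 without scaling factors). For both lists the shares over all tested genes were 18.3% that rose and 19.2% that fell. Bid, which carries death receptor signals to mitochondria, went from 35.7, 40.3 and 35.6 CPM to 72.4, 78.2 and 100.4 CPM (1.17 ± 0.15, adjusted p = 5.0e-06). The groups did not overlap for Bid or Pmaip1.

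Early genes of T cell receptor signalling gave 4 rises and 5 falls among 24 (4 and 8 without scaling factors). With scaling factors these shares were near the 18.3% and 19.2% of all tested genes. Tnf went from 80.0, 80.6 and 85.5 CPM to 165.1, 193.2 and 178.7 CPM (1.13 ± 0.10, adjusted p = 2.4e-08), and Egr2 from 14.8, 17.1 and 19.6 CPM to 27.3, 43.2 and 34.1 CPM (1.02 ± 0.18, adjusted p = 1.7e-04). The AP-1 genes Fos (−1.99) and Fosl2 (−1.17 ± 0.21), the nuclear receptor gene Nr4a2 (−1.75) and the activation marker Cd69 (−0.49 ± 0.10) fell. In the IL-2 and STAT5 list 5 of 18 genes rose and 4 fell (4 and 7 without scaling factors), to be read against the same shares of all tested genes. Il2 went from 80.8, 47.5 and 87.5 CPM to 119.8, 163.9 and 173.3 CPM (1.08 ± 0.30, adjusted p = 0.012), and the survival kinase gene Pim2 from 176.2, 149.0 and 154.4 CPM to 46.3, 55.3 and 68.9 CPM (−1.49 ± 0.12, adjusted p = 1.3e-08). Tnf, Egr2, Il2 and Pim2 each had separate groups.

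Autophagy and lysosome genes gave 5 rises and 8 falls among 32 (2 and 13 without scaling factors), against 18.3% and 19.2% of all tested genes with scaling factors. Ctsl, cathepsin L, went from 17.9, 24.9 and 28.4 CPM to 5.96, 6.39 and 7.16 CPM (−1.86 ± 0.17, adjusted p = 6.4e-08), Tfeb, a regulator of lysosome genes whose protein output has been tied to hypusinated eIF5A, from 7.21, 5.42 and 6.91 CPM to 2.48, 2.32 and 2.36 CPM (−1.44 ± 0.33, adjusted p = 0.0016), and Ctsz rose by 0.72 ± 0.10. The groups of Ctsl and Tfeb were separate. Of 24 genes of the NRF2 response to oxidative stress 8 rose and 5 fell, but 4 and 6 without scaling factors. Prdx1, a peroxidase, went from 736.6, 506.0 and 503.0 CPM to 1050.9, 1007.5 and 980.7 CPM (0.80 ± 0.12, adjusted p = 2.9e-05), while Hmox1, haem oxygenase, went from 5.92, 10.3 and 8.17 CPM to 0.87, 1.49 and 2.01 CPM (−2.44 ± 0.30, adjusted p = 2.2e-06). Among 35 histone-modifying genes 3 rose and 8 fell (2 and 15 without scaling factors), a share of falls near the 19.2% of all tested genes. The list held 16 demethylase genes, of which 1 rose and 6 fell (0 and 9 without scaling factors). Kdm5b went from 43.4, 44.6 and 58.7 CPM to 20.1, 17.1 and 22.5 CPM (−1.30 ± 0.16, adjusted p = 2.8e-06), Kdm1a fell by 0.78 and Kdm3a by 0.91, while Kdm6b (0.16) and the methyltransferase gene Ezh2 (−0.16) did not pass, although Ezh2 was called lower under 3 settings (without DFMO animal 3 −0.43, adjusted p = 0.0036).

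The largest rises among annotated genes with a mean log2 CPM of 3 or more were led by a chemokine. Ccl22 (chr8:94745590-94751699), a ligand of CCR4, was at 0.861, 3.40 and 1.69 CPM with vehicle and at 123.7, 94.0 and 91.2 CPM with DFMO (5.67 ± 0.91, adjusted p = 0.0013). Spib (chr7:44525993-44532071), an ETS factor best known from B cells and plasmacytoid dendritic cells, was at 5.70, 10.4 and 8.26 CPM with vehicle and at 100.9, 98.8 and 86.6 CPM with DFMO (3.55 ± 0.38, adjusted p = 2.2e-06). Vcam1, an adhesion molecule, went from 4.09, 1.47 and 3.03 CPM to 45.3, 38.3 and 27.9 CPM (3.70 ± 0.45, adjusted p = 3.1e-06). In all 3 genes each DFMO library was far above each vehicle library. Pigr (2.93 ± 0.35), Kctd14 (16.7, 17.7 and 20.7 CPM to 145.7, 157.8 and 117.3 CPM, 2.93 ± 0.25), Dnah7a (2.40), Nppc (2.37), the water and glycerol channel gene Aqp3 (54.3, 22.8 and 14.5 CPM to 192.1, 193.3 and 65.4 CPM, 2.31 ± 0.49, adjusted p = 0.0024, but 0.081 in the iTreg libraries alone) and Angptl2 (2.17) followed. Xcl1 rose by 2.34 ± 0.65 (adjusted p = 0.014) with overlapping groups, and 7 of the 18 settings ended its call, DESeq2 among them (adjusted p = 0.074).

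Because Ccl22 and Spib are also expressed by other cells, markers of those cells are given here. Summed B cell markers were at 15.0 to 16.5 CPM with vehicle and 16.4 to 27.1 CPM with DFMO, with none of 4 tested genes called and Blk at 0. Summed dendritic cell markers were at 273.0 to 374.4 CPM with vehicle and 149.2 to 187.5 CPM with DFMO, with none of 7 tested genes higher and 4 lower, and Clec9a and Itgax at 0. Among those 4, H2-Ab1 went from 25.3, 33.8 and 26.0 CPM to 1.74, 1.74 and 0.611 CPM, and Cd74 from 59.1, 94.8 and 91.7 CPM to 20.5, 20.9 and 20.4 CPM. Summed myeloid markers were at 90.2 to 101.3 CPM and 80.5 to 95.3 CPM (1 of 3 lower, with Lyz2, Itgax, S100a8 and S100a9 at 0), and summed natural killer and innate lymphoid markers at 8.09 to 15.1 CPM and 12.8 to 14.2 CPM (none of 4 called, with Ncr1, Klrb1c, Klre1 and Tyrobp at 0). Summed CD8 T cell markers were at 62.6 to 95.2 CPM and 75.7 to 125.1 CPM (none of 4 called).

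The largest falls among annotated genes with a mean log2 CPM of 3 or more, beside Aldoc, Oas3, Bnip3 and Isg15, were those of Anxa2, Ly6a, Tg, Prelid2, Trim30d, Ndrg1, Tubb2b and Fads2. Anxa2 (chr9:69453620-69491795), a calcium-dependent membrane-binding protein gene, was at 342.8, 403.8 and 472.5 CPM with vehicle and at 13.0, 10.5 and 36.2 CPM with DFMO (−4.34 ± 0.39, adjusted p = 2.4e-06). Trim30d went from 52.7, 61.6 and 83.2 CPM to 6.83, 7.06 and 3.49 CPM (−3.51 ± 0.27, adjusted p = 1.4e-08), and the tubulin gene Tubb2b from 27.9, 37.9 and 31.4 CPM to 4.47, 2.49 and 4.10 CPM (−3.15 ± 0.24, adjusted p = 4.3e-09). All were lower in every DFMO library. Fads2, a fatty acid desaturase, went from 55.8, 39.5 and 36.3 CPM to 0.994, 1.66 and 12.8 CPM (−3.04 ± 0.62, adjusted p = 0.0019, but 0.075 in the iTreg libraries alone), and Ly6a from 31.5, 33.7 and 129.9 CPM to 8.95, 4.23 and 1.05 CPM (−3.88 ± 0.65, adjusted p = 4.7e-04, but 0.053 in the iTreg libraries alone).

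The response of iTreg cells was then set against that of Th17n and Th17p cells by the difference of the DFMO effects. It differed from Th17n cells for 1396 genes (12.1% of those tested), 768 with a higher and 628 with a lower effect in iTreg cells (6.66% and 5.45%), and from Th17p cells for 789 genes (6.85%), 406 higher and 383 lower (3.52% and 3.32%). Without scaling factors the balance turned, to 450 higher and 1509 lower against Th17n cells and 261 and 678 against Th17p cells, and the counts by list that follow were not recounted on that scale. Against both, 211 genes were higher and 160 lower with scaling factors. Of the 4329 genes called in iTreg cells, 2832 were also called in the same direction in Th17n cells (65.42% of the iTreg calls and 52.91% of the 5352 Th17n calls) and 126 in the opposite one. For Th17p cells the numbers were 2206 (50.96% of the iTreg calls and 58.1% of the 3797 Th17p calls) and 105. DFMO changed 46.4% of tested genes in Th17n and 32.9% in Th17p cells. The count against Th17p cells depended on single libraries, being 521 without vehicle animal 3 and 477 without DFMO animal 2.

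Within the polyamine pathway the effects on Odc1 and Azin1 were among those that differed. Odc1 fell in iTreg cells by 0.57, did not pass in Th17n cells (0.20, adjusted p = 0.25) and rose in Th17p cells by 0.67 (differences −0.77 ± 0.19, adjusted p = 0.013, and −1.24 ± 0.19, adjusted p = 6.4e-04). Azin1 rose less in iTreg cells (0.84) than in Th17n cells (1.64), with a difference of −0.80 ± 0.14 (adjusted p = 8.3e-04), and Eif5a rose more than in either (0.90 against 0.43 and 0.32, differences 0.47 ± 0.10 and 0.58 ± 0.10). The first Eif5a difference was not called on log2(TPM + 1) (0.17, adjusted p = 0.19). Amd1 rose more in iTreg than in Th17p cells (difference 0.69 ± 0.12, adjusted p = 1.0e-03, but 0.44 with adjusted p = 0.065 on log2(TPM + 1)), and its effects in iTreg and Th17n cells were 1.94 and 1.82. Oaz2 fell by 2.81, 2.76 and 2.08 in iTreg, Th17n and Th17p cells, and Smox by 2.21, 2.35 and 1.66, with no called difference.

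Several regulatory genes were among those whose effects differed. Foxp3 rose in Th17n cells by 3.09 and did not pass in iTreg cells, a difference of −3.18 ± 0.44 (adjusted p = 7.5e-04), while that from Th17p cells did not pass (−1.36 ± 0.78, adjusted p = 0.33). The fall of Ctla4 in iTreg cells was deeper than the effect in Th17n cells (difference −2.09 ± 0.24, adjusted p = 7.0e-05) and in Th17p cells (−1.15 ± 0.24, adjusted p = 0.0083). The rise of Ikzf4 was higher than the effects in both (0.88 ± 0.17 in each case). Lrrc32, which did not pass in iTreg cells, fell in Th17n cells by 1.36 and in Th17p cells by 1.80 (differences 1.54 ± 0.27 and 1.98 ± 0.29). Nrp1 rose less in iTreg than in Th17n cells (1.21 against 3.11, difference −1.90 ± 0.55, adjusted p = 0.040, lost under 7 settings). Il17f fell in Th17p cells by 3.15, against the rise at low counts in iTreg cells (difference 5.57 ± 0.75, adjusted p = 9.7e-04).

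Some of the strongest iTreg changes were larger there than in Th17 cells. Genes chosen for a large iTreg change are favoured to show a larger one there, since the same libraries enter the difference. Anxa2 fell by 4.34 there, by 1.94 in Th17n and by 1.46 in Th17p cells (differences −2.39 ± 0.48 and −2.88 ± 0.49), and Tubb2b by 3.15, 1.14 and 0.77 (differences −2.01 ± 0.31 and −2.38 ± 0.31). Spib rose in iTreg cells and did not pass in Th17n or in Th17p cells. Its estimate in Th17n cells was negative, so the difference from them (5.91 ± 1.19, adjusted p = 0.0044) was larger than the iTreg rise. The difference of Spib from Th17p cells did not pass (2.49 ± 1.05, adjusted p = 0.17). Kctd14 rose by 2.93, 1.69 and 0.10, the last without passing, with differences of 1.24 ± 0.34 (adjusted p = 0.025, lost under 6 settings) and 2.83 ± 0.49 (adjusted p = 0.0023). The fall of Aldoc (−5.19, −5.01 and −3.66) differed from Th17p cells (−1.53 ± 0.38, adjusted p = 0.024, lost under 3 settings) and passed no test against Th17n cells, and the rise of Il9 (4.25, 3.12 and 4.02) was not called different from either. Of 29 ribosome biogenesis genes 11 had a lower effect in iTreg than in Th17n cells and 1 a higher one, of 34 S phase genes 14 a lower one and none a higher one, and of 17 translation genes 8 a higher and 3 a lower one.

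**Figure D5:**
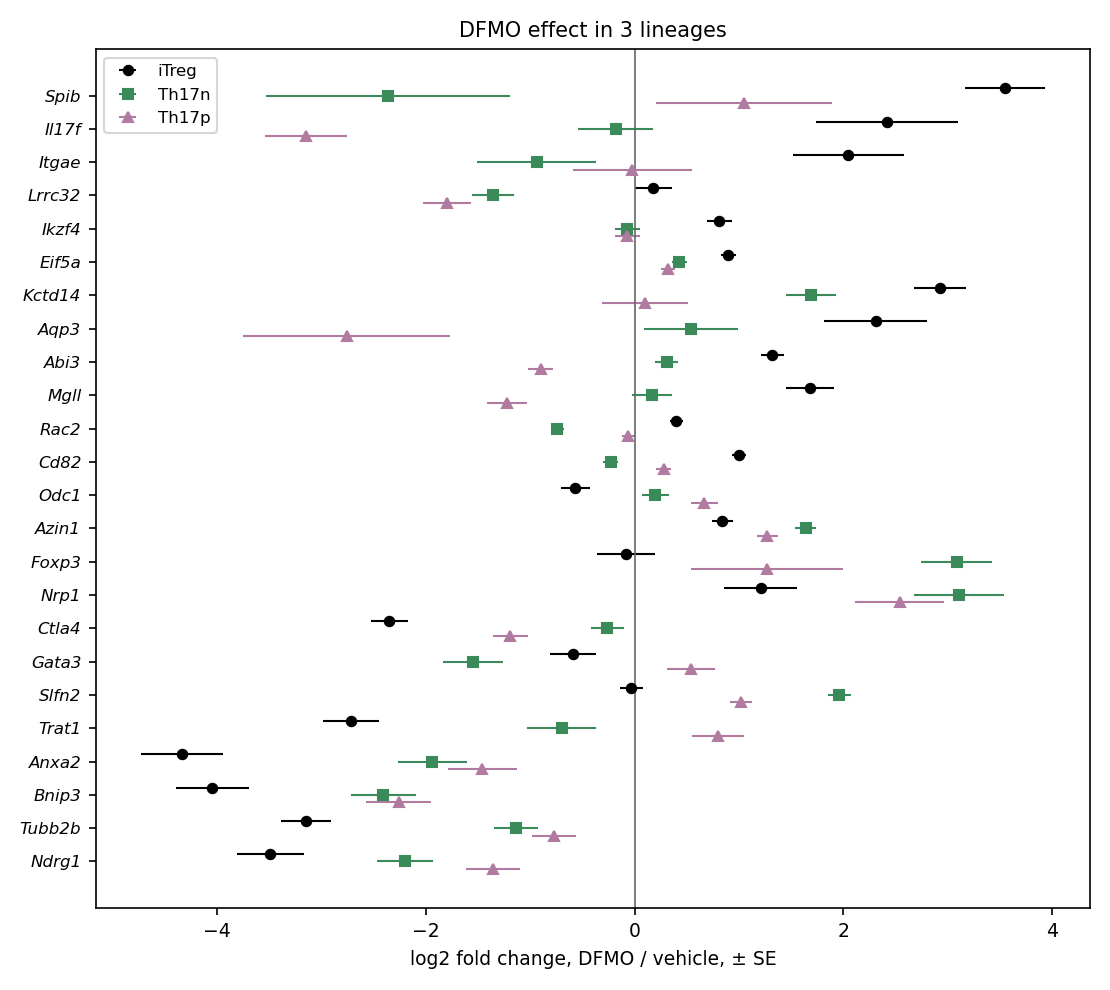
Change with DFMO (log2 ratio, horizontal axis, ± standard error) of 24 genes in iTreg, Th17n and Th17p cells, 3 animals in each group. Odc1 lies at −0.57, 0.20 and 0.67 in iTreg, Th17n and Th17p cells, Ctla4, Anxa2 and Tubb2b lie lowest in iTreg cells, and Foxp3 lies near 0 in iTreg and above 3 in Th17n cells.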

How the data were processed

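Per the labels' protocols, full-length RNA-seq libraries were sequenced as 75-base read pairs on a NextSeq 500. The submitters' processing notes name Bowtie2, RSEM and the mouse build GRCm38.p3, while versions, annotation and strand setting were not given in the sources used here. Estimated counts per gene and TPM values for each run were deposited by the authors. The counts of the 2 runs of a library were added and rounded (12.2% of values were not whole), and TPM served in alternatives only.

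All 18 libraries were fitted together with edgeR 4.0.16 in R 4.3.3 (TMM scaling, filterByExpr, robust quasi-likelihood test, group means, Benjamini-Hochberg adjustment). A run on simulated counts for 11346 genes came first, with 80, 80 and 39 genes changed by 0.5, 1 and 2 on the log2 scale. Of these 26.2%, 68.8% and 79.5% were called, as were 0.04% of unchanged genes. Far fewer genes changed there than the 37.6% called in the data, so these rates need not hold for the data. The filter left 11526 of 20817 genes. Library totals of 8307662 to 12594432 counts put the limit that 3 counts allow at 0.238 to 0.361 CPM before scaling factors. Intervals and floors cover counting error only. The labels give the same animal number to a vehicle and a DFMO library, and deviations from the group means correlated within each animal (r = 0.157, 0.105 and 0.213), so a model with animal as a block was tried; the other alternatives used DESeq2 1.42.0, limma 3.58.1 on log2(TPM + 1) and log2(TPM + 0.1), other scalings and filters, single runs, the iTreg libraries alone, and fits without each library. Nothing in the labels says how separately the cultures of an animal were handled.

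The members and gene lists were chosen with earlier results of these data known. Genes were named by a rule: the 12 largest rises and 12 largest falls (mean log2 CPM of 3 or more, same sign in all 3 animals, predicted, Riken, histone and receptor segment genes left out), the tested polyamine genes and main regulatory T cell genes, up to 4 per list by p-value, and 8 per lineage by the p-value of the difference. Other genes named, and the lists of dendritic markers, chemokines, chemokine receptors, interleukins and fatty acid synthesis, were chosen after their values were seen. A few genes that the rule names are not reported here. Coordinates are from GENCODE M21 (GRCm38), matched by symbol (20087 symbols, 656 by an older one), and promoter sequences are from RefSeq (GRCm38.p6, 9150 of 11526 tested genes).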

Additional observations from a re-analysis of the deposited data

Results flagged for a closer look

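The results here are those for which the DFMO effect in iTreg cells minus that in another lineage passed edgeR's quasi-likelihood test, 1396 genes against Th17n cells and 789 against Th17p cells. Values are differences of log2 effects, positive where the effect was higher in iTreg cells. Each lineage has its own vehicle libraries, and no explanation was tested. Picking genes by the size of their iTreg change favours a larger effect in iTreg cells.

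Among the genes with the smallest p-values against Th17n cells, Rac2, a small GTPase gene of blood cells, differed by 1.15, as it rose by 0.40 in iTreg cells and fell by 0.74 in Th17n cells. Slfn2, a gene of T cell quiescence, differed by −1.99, since it rose by 1.96 in Th17n cells and stood at −0.03 in iTreg cells. Cd82 differed by 1.23, Park7 by 1.16, Impa2 by 1.58, Eef1a1 by 0.97, Tspan13 by 1.48 and Lsp1 by 1.3. Of the genes with the largest changes in iTreg cells, Spib differed by 5.91, Kctd14 by 1.24, Anxa2 by −2.39, Bnip3 by −1.64 and Tubb2b by −2.01. Of the regulatory and helper genes, Foxp3 differed by −3.18, Ctla4 by −2.09, Ikzf4 by 0.88, Nrp1 by −1.9, Itgae by 2.99, Lrrc32 by 1.54 and Il17f by 2.61. Of the polyamine genes, Odc1 differed by −0.77, Oaz1 by 0.29, Azin1 by −0.8, Atp13a3 by −0.79, Slc7a1 by −0.76 and Eif5a by 0.47. Atp13a3 and Slc7a1 rose in Th17n cells by 1.0 and 0.85 and did not pass in iTreg cells.

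Among the genes with the smallest p-values against Th17p cells, Abi3, an actin regulator gene, differed by 2.23, as it rose by 1.32 in iTreg cells and fell by 0.9 in Th17p cells. Mgll, the monoacylglycerol lipase gene, differed by 2.9, with a rise of 1.68 and a fall of 1.22, and Trat1, a T cell receptor adaptor gene, by −3.52, with a fall of 2.72 and a rise of 0.8. Treml2 differed by 1.85, Pdlim1 by −1.05, Impa2 by 1.32, Tnip2 by 1.46 and Selplg by 0.92. Of the genes with the largest changes in iTreg cells, Kctd14 differed by 2.83, Aqp3 by 5.07, Aldoc by −1.53, Anxa2 by −2.88, Bnip3 by −1.79, Tg by −2.52, Prelid2 by −2.32, Ndrg1 by −2.13 and Tubb2b by −2.38. Of the regulatory and helper genes, Ctla4 differed by −1.15, Ikzf4 by 0.88, Lrrc32 by 1.98, Il17f by 5.57 and Gata3 by −1.13. Of the polyamine genes, Odc1 differed by −1.24, Amd1 by 0.69 and Eif5a by 0.58.

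Several of these calls were lost under alternatives. The settings with the iTreg libraries alone hold no other lineage and give no such difference. Against Th17n cells the difference of Oaz1 was lost or reversed under 11 of the other settings (0.12, adjusted p = 0.38, without scaling factors), that of Il17f under 11 (1.55, adjusted p = 0.15, without DFMO animal 2), that of Nrp1 under 7, Kctd14 under 6, Bnip3 under 4 and Eif5a under 2. Against Th17p cells that of Tg was lost under 7, Bnip3 and Gata3 under 4 each, Aldoc under 3 and Amd1 under 2.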

How the results depend on the processing

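Of 196 named genes, none had an iTreg effect of opposite direction under any of the 18 alternative settings where either fit called it. At most 9 lost and 7 gained their call under a single setting, both on log2(TPM + 0.1). Some genes called in neither fit changed sign, up to 5 of them by more than the standard error, on the TPM scales. The direction of the genome-wide split depended on scaling. Rises numbered 1284 without scaling factors, 1024 on log2(TPM + 1) and 991 on log2(TPM + 0.1), and falls 3439 and 3446 on these TPM scales. The higher and lower differences from Th17n cells numbered 450 and 1509 without scaling factors, 402 and 2161 (2563 in all) on log2(TPM + 1), and 323 and 2140 (2463 in all) on log2(TPM + 0.1). Those from Th17p cells numbered 261 and 678 without scaling factors, 1330 in all with 1014 lower on log2(TPM + 1), and 224 and 939 on log2(TPM + 0.1). The difference of Oaz1 between iTreg and Th17n cells reversed on both TPM scales, to −0.02 (adjusted p = 0.92). The cause was not tested.

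Leaving out 1 iTreg library at a time gave 3493 to 4221 changed genes (1641 to 2166 higher, 1726 to 2186 lower). Differences from Th17n cells numbered 1053 to 1678 (600 to 866 higher, 435 to 812 lower). Those from Th17p cells numbered 477 to 1112 (261 to 554 higher, 201 to 575 lower). Against Th17p cells the lower differences were 231 without vehicle animal 2, 253 without DFMO animal 1, 201 without DFMO animal 2 and 575 without DFMO animal 3, and the higher ones 261 without vehicle animal 3.

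With the animal as a replicate block 4668 genes were called in iTreg cells (2251 higher, 2417 lower), and the differences from Th17p cells rose to 1237 (637 lower). Among named genes the block added calls, those of Srm, Sms and Amd2 among them, and removed the difference of Il17f from Th17n cells (2.6, adjusted p = 0.074).

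Depth limits low genes: values under 0.238 to 0.361 CPM, before scaling factors, rest on fewer than 3 counts, and 9291 of 20817 genes were not tested.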

Other observations

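Gene groups chosen after their values were seen are given here as descriptions. Of 14 tested chemokine genes 4 rose and 2 fell, also without scaling factors. Cx3cl1, a membrane-bound chemokine gene, was at 1.94, 1.38 and 1.18 CPM with vehicle and 18.5, 11.7 and 21.9 CPM with DFMO (3.54 ± 0.62, adjusted p = 3.0e-04), and Ccl3 at 12.9, 18.8 and 25.4 CPM with vehicle and 47.2, 75.5 and 103.2 CPM with DFMO (1.98 ± 0.40, adjusted p = 0.0016, but 0.051 on log2(TPM + 0.1)). Both were higher in every DFMO library. Ccl4, a related chemokine gene, did not pass (0.09), and Cxcl10 had 38 counts over the vehicle libraries and 0 over the DFMO libraries, at least 12.5-fold lower against a floor of 3 counts over the group. Of 17 chemokine receptor genes 4 rose (Ccr4, Ccr6, Cxcr5 and Cx3cr1, the last lost under 5 settings) and Ccr7 fell (4 and 2 without scaling factors). Cxcr5, which guides cells to follicles, went from 3.87, 5.06 and 3.20 CPM to 9.94, 12.7 and 6.98 CPM (1.29 ± 0.28, adjusted p = 0.0011).

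Of 19 tested genes named as interleukins or by an interleukin with a single letter, some of them receptors, 6 rose and 3 fell (6 and 4 without scaling factors). Il1a went from 0.753, 1.65 and 1.85 CPM to 24.0, 30.2 and 14.1 CPM (3.97 ± 0.44, adjusted p = 6.5e-07). Il23a, the specific chain of IL-23, went the other way, from 6.13, 13.1 and 9.01 CPM to 0.248, 1.25 and 0.175 CPM (−3.97 ± 0.49, adjusted p = 2.7e-06). Il9r, a chain of the IL-9 receptor, fell at low levels from 1.08, 1.56 and 1.85 CPM to 0.0, 0.083 and 0.262 CPM (−3.47, adjusted p = 0.0099), while Il9 rose. The groups did not overlap for any of the 3. Il34, which was not tested because of its low counts, had 2 counts with vehicle and 46 with DFMO, a ratio of 23.4 (6.11 to 198.6, counting error only).

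Of 20 tested genes of fatty acid synthesis and storage 3 rose and 9 fell (1 and 10 without scaling factors). The desaturase gene Scd1 went from 243.3, 198.5 and 191.6 CPM to 17.4, 24.7 and 72.2 CPM (−2.46 ± 0.42, adjusted p = 4.8e-04, but 0.11 in the iTreg libraries alone with the block), and the lipid droplet gene Plin2 from 19.8, 29.3 and 32.6 CPM to 5.09, 3.40 and 6.02 CPM (−2.50 ± 0.25, adjusted p = 6.9e-07). Fasn, the fatty acid synthase gene, did not pass (0.17), except without vehicle animal 1 (0.45, adjusted p = 0.022). Acaca, which makes its substrate, rose by 0.48, a call lost under 4 settings (0.31, adjusted p = 0.051, without scaling factors). DFMO animal 3 had the highest Scd1 value among the DFMO libraries and was below every vehicle library.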
